A study of Rattus norvegicus with 17 samples.

Results

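The cytosolic ribosomal protein genes were the 72 genes, of 14506 with a probe set of their own, whose symbol begins with Rpl or Rps followed by a number (the Rplp stalk proteins and Rpsa included, the S6 kinase genes and pseudogenes left out). A gene with more than 1 probe set was represented by its brightest, taken by the mean of the 17 arrays. The 72 comprised 39 proteins of the large subunit, 26 of the small subunit and the 3 P-stalk proteins. The others were the paralogs Rpl22l1 and Rps4y2, and Rpl36al1 and Rpl37l1, which only the symbol pattern brought in.

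Total RNA of 17 tissue samples from rats aged 8 months was measured on Affymetrix arrays, 4 after NVP-BEZ235 at 30 mg/kg (3 female, 1 male), 6 after NVP-BEZ235 at 20 mg/kg (4 female, 2 male) and 7 controls given PEG, labelled with a dose of 20 mg/kg (5 female, 2 male). NVP-BEZ235 is an inhibitor of PI3K and mTOR kinases. All rats carried a mutation of Cdkn1b (p27Kip1) on a Sprague-Dawley white eye/Wistar-Kyoto background. It was homozygous per the sample labels and heterozygous per the design text. No group of rats without the mutation was included. The study addressed the antitumor activity of PI3K/mTOR inhibition. The labels call the tissue pituitary adenoma, while the series title names pheochromocytoma. The mean of 6 chromaffin markers was 11.2, 11.7 and 11.6 at 30 mg/kg, at 20 mg/kg and in controls, and that of 8 adrenal cortex markers was 11.1, 10.7 and 11.1 (log2). The mean of 7 pituitary hormone genes was 4.75, 4.30 and 4.53, while the medians of whole arrays were 4.95 to 5.11. The labelled tissue's defining markers were therefore not seen at the levels of adrenal markers. No label says whether samples are separate animals, so the p-values rest on a spread among samples that may be technical.

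The cytosolic ribosome consists of a small subunit that reads the mRNA and a large subunit that joins amino acids, and each subunit is built of ribosomal RNA and many proteins. The mRNAs of nearly all ribosomal proteins begin with a cytosine followed by an unbroken run of pyrimidines, the 5′ terminal oligopyrimidine (TOP) motif. When mTOR complex 1 is inhibited, the 4E-BP proteins and LARP1 hold these mRNAs off ribosomes, and LARP1 also protects them from decay. Arrays measure the amount of mRNA and not its translation. In these bulk samples, fewer cells of a type and less RNA per cell cannot be told apart.

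The start-site sequences of 8 members are shown because the pyrimidine run is what sets these mRNAs apart for mTOR. They were read from RefSeq promoters of build GRCr8, from 20 bases before the annotated gene start to 25 bases after it, on the strand of the gene, 5′ to 3′, and capitals mark the longest run of C and T in each window. Position 1 is the annotated start, and position -1 is the base before it. Rps15 lies at chr7:10068091-10068135 (minus strand), Rpl28 at chr1:78083508-78083552 (minus), Rpl34 at chr2:221962259-221962303 (minus), Rplp0 at chr12:46718366-46718410 (minus), Rpl7a at chr3:30637116-30637160 (plus), Rps3 at chr1:163195752-163195796 (minus), Rps19 at chr1:89608668-89608712 (plus) and Rpl22l1 at chr2:113683176-113683220 (plus).
Rps15: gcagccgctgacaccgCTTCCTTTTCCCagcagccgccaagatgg
Rpl28: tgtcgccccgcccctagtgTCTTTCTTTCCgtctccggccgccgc
Rpl34: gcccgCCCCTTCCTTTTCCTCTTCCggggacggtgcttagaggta
Rplp0: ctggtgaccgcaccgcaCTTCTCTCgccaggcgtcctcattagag
Rpl7a: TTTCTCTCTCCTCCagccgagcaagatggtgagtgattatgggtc
Rps3: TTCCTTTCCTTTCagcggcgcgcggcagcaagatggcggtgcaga
Rps19: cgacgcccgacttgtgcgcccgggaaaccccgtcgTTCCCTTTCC
Rpl22l1: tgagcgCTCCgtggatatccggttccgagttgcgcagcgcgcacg

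In Rps15, Rpl28, Rpl34 and Rplp0 the annotated start was a C inside the run, with 8, 10, 5 and 5 pyrimidines from the start onwards. In Rpl7a and Rps3 the run of 14 and 13 bases lay before the annotated start, beginning at position -20, and in Rps19 it began at position 16. These runs touch an edge of the window, so they may extend beyond it and their full lengths were not read. The paralog Rpl22l1 had no run longer than 4 bases. The promoter table held 59 of the 72 members. Of these, 22 (37.3%) began with C and at least 4 further pyrimidines, against 2.63% of the 27457 promoters of the table. The longest run in the window had a median of 10 bases in the members and 5 in all promoters. The hexamer CTTTCC, found on either strand of the window, was present in 20 members (33.9%) and in 3.97% of all promoters. The hexamer CTCTTT was present on either strand in 16 members (27.1%) and in 3.31% of all promoters, and the motifs may overlap each other and the run. A match describes the annotated window and not a measured start of transcription.

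The members' transcripts were bright and moved together from array to array. On the deposited log2 scale 70 of the 72 had a mean of at least 10, while the array medians lay near 5. The exceptions were the single probe set of Rpl15, with a mean of 7.47, and Rps4y2, with values of 5.50 to 6.88. Over the 17 arrays the Pearson r between 2 members had a median of 0.67 over the 2556 pairs, and 0.36 after each group's mean was removed with the controls numbered 1 to 4 and 5 to 7 taken apart. Members share arrays and depth of signal, so this is a description. Rps12, Rpl17 and Rps14, with r of 0.96, 0.95 and 0.95, followed the median of the other members most closely. Rplp0 (0.39), Rps4y2 (0.10), Rpl38 (0.05) and Rpl41 (-0.32) followed it least.

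The median over the 72 genes was 11.51, 11.54, 11.74 and 11.72 in the 4 samples at 30 mg/kg. It was 11.87, 11.95, 11.92, 11.90, 11.98 and 12.01 in the 6 samples at 20 mg/kg. In the 7 controls it was 11.40, 11.51, 11.62, 11.60, 11.76, 11.73 and 11.73. All samples at 20 mg/kg lay above all controls, whereas the samples at 30 mg/kg lay within the range of the controls. Among the controls the 3 numbered 5 to 7 in the sample titles lay above the 4 numbered 1 to 4. The 30 mg/kg samples carry the numbers 1 to 4 and the 20 mg/kg samples 5 to 10, so among treated samples dose and number cannot be told apart. The labels do not say what the numbers stand for.

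**Figure D1:**
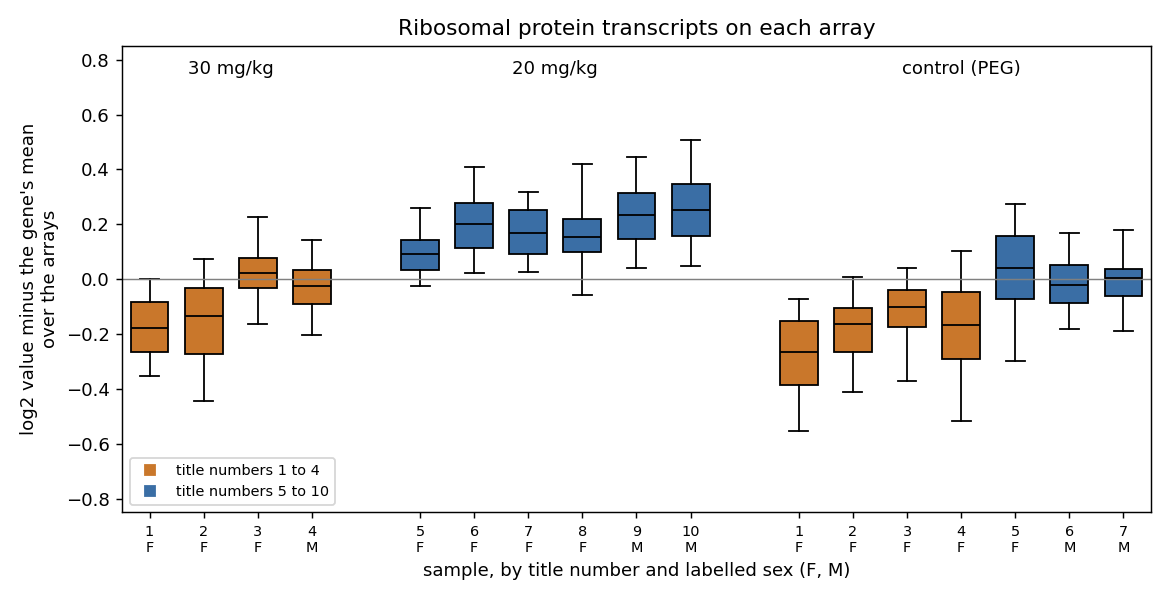
Ribosomal protein transcripts on each array: the log2 value of each of the 72 genes minus its mean over the 17 arrays (y axis), as a box per sample (x axis; line, median; box, quartiles; whiskers, 5th and 95th percentiles), coloured by title number. The boxes at 20 mg/kg lie highest, and the controls numbered 5 to 7 lie above the controls numbered 1 to 4.

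Treatment was compared with control over both doses in a limma fit with sex as a term, with p-values adjusted by Benjamini-Hochberg over all 14506 genes. Rpl7a, a large subunit protein, was the member that passed an adjusted p of 0.05, and it was higher after NVP-BEZ235. That is 1 of 72, beside 0.517% of all genes called higher, and 0 members were called lower, beside 0.965% of all genes. The direction was shared more widely than the calls, since 70 of 72 members had a positive difference, with a median of 0.18 (log2), against a median of 0.00 over all genes. At an unadjusted p under 0.05 there were 33 members. In 0 of the 72 did all treated samples lie above all controls, beside 0.0827% of all genes.

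Against all controls, 15 members passed an adjusted p of 0.05 as higher at 20 mg/kg and 0 were lower, beside 0.655% of all genes called higher and 0.524% called lower. These were the large subunit genes Rpl3, Rpl5, Rpl7, Rpl7a, Rpl8, Rpl11, Rpl15, Rpl24 and Rpl34 and the small subunit genes Rps3, Rps10, Rps14, Rps15, Rps19 and Rpsa. The median difference was 0.29 over all members, 0.29 for the large subunit and 0.30 for the small subunit, and 70 of 72 differences were positive, against a median of -0.01 over all genes. In 26 members all 6 samples at 20 mg/kg lay above all 7 controls, beside 0.917% of all genes. The count rested on single libraries: it was 0 without sample 6, 7 or 8 at 20 mg/kg, 5 without sample 10, 6 to 9 without control 1, 2, 4 or 7, and 32 without control 5. Calls over all genes, in either direction, moved as well. They were 171 in the full fit and 32, 22 and 26 without samples 6, 7 and 8 at 20 mg/kg. Without sample 10 they were 65, and without control 5 they were 470. The median difference of the members stayed between 0.26 and 0.31 as each library was left out.

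At 30 mg/kg, 0 members were called in either direction, beside 3.66% of all genes called higher and 4.89% called lower. The median difference from all controls was 0.01, with 41 of 72 positive. At an unadjusted p under 0.05 there were 2 members, Rplp0 at 0.39 ± 0.13 (log2 difference ± SE, limma adjusted p = 0.072) and Rpl7a at 0.29 ± 0.10 (adjusted p = 0.092). In 0 of the 72 did all samples at 30 mg/kg lie above all controls, beside 1.75% of all genes.

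The difference between the doses was tested in the same fit of 3 groups. At 30 mg/kg, 24 members were lower than at 20 mg/kg and 0 were higher, beside 8.16% of all genes called lower and 3.92% called higher. The 24 comprised 14 large subunit and 10 small subunit genes, and the P-stalk proteins, the paralogs and the genes matched by pattern alone had 0. The median difference was -0.24, and 38 of the 72 members were lower in every sample at 30 mg/kg than in any at 20 mg/kg, beside 7.42% of all genes. The count was 2 without sample 4 at 30 mg/kg, 5 without sample 2 at 30 mg/kg, and 9 to 15 without sample 6, 7, 8 or 9 at 20 mg/kg. Calls over all genes, in either direction, were 1752 in the full fit and 321, 1259 and 874 to 1257 in these fits.

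Each dose was also set against the controls that carry its own title numbers. At 20 mg/kg against controls 5 to 7, 3 members were higher and 0 lower, beside 0.214% of all genes called higher and 0.979% called lower, with a median of 0.19 and 68 of 72 positive. The 3 were Rplp0 (0.60 ± 0.10, limma adjusted p = 0.022), Rpl10 (0.61 ± 0.11, adjusted p = 0.029) and Rpl7a (0.48 ± 0.10, adjusted p = 0.048). Leaving out each of the 9 samples in turn gave 0 to 4 calls, medians of 0.16 to 0.23 and 66 to 71 positive differences. The count was 0 without control 6 or 7 or sample 6 or 10 at 20 mg/kg, and 1 or 2 without control 5 or sample 7, 8 or 9. Over all genes, 0 to 43 were called higher in these fits, beside 31 with all 9 samples. In 30 members all samples at 20 mg/kg lay above these 3 controls, beside 3.22% of all genes.

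At 30 mg/kg against controls 1 to 4, 0 members were called, beside 0.0276% of all genes called higher, and the median was 0.07 with 55 of 72 positive. Leaving out each of the 8 samples gave 0 calls and medians of 0.01 to 0.11. Sample 4 at 30 mg/kg was the only male of numbers 1 to 4, so the sex term took up its values. The differences in this fit therefore rest on samples 1 to 3 at 30 mg/kg. Without sample 4 the median was 0.07 with 55 positive, unchanged from the full fit. In 2 members, Rpl7a and Rplp2, all samples at 30 mg/kg lay above these 4 controls, beside 3.46% of all genes. The test of the difference between both within-number differences called 0 members and 0 genes (0% of all genes), with a median of -0.10 over the members, 3 at an unadjusted p under 0.05 and a smallest adjusted p of 0.64. The 24 members that differed between the doses were thus not called when each dose was read against its own controls.

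A fit over all samples with the title-number set (1 to 4 or 5 to 10) as a term called 6 members higher for both doses together, Rpl7, Rpl7a, Rpl8, Rplp0, Rps3 and Rps19, and 0 lower, beside 2.16% of all genes called higher and 2.75% called lower. In that fit 1 member was higher at 20 mg/kg, Rpl10, beside 0.0207% of all genes called higher and 0.338% called lower, with a median of 0.19. For 30 mg/kg it called 0 members, beside 1.5% of all genes called higher and 1.52% called lower, with a median of 0.09 and 58 of 72 positive.

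The numbers themselves went with the members' level. With dose and sex in the fit, controls 5 to 7 exceeded controls 1 to 4 by a median of 0.15 over the members, with 55 of 72 positive. Dose and number coincide among treated samples, so this difference rests on the controls. Controls 1 to 4 were all female and controls 6 and 7 male, so number and sex are largely mixed there. Rpl5 (0.59 ± 0.14, limma adjusted p = 0.037) and Rpl34 (0.79 ± 0.21, adjusted p = 0.048) passed, beside 2.68% of all genes called higher. In 33 of 72 members the controls 5 to 7 all lay above the controls 1 to 4, beside 10.9% of all genes. Male samples exceeded female samples by a median of 0.12 over the members, with 63 of 72 positive. Of the members 0 were called, beside 0.227% of all genes called higher in males and 0.0138% called lower. That fit had treatment as a term and neither dose nor number, so the difference is mixed with those of number and dose.

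**Figure D2:**
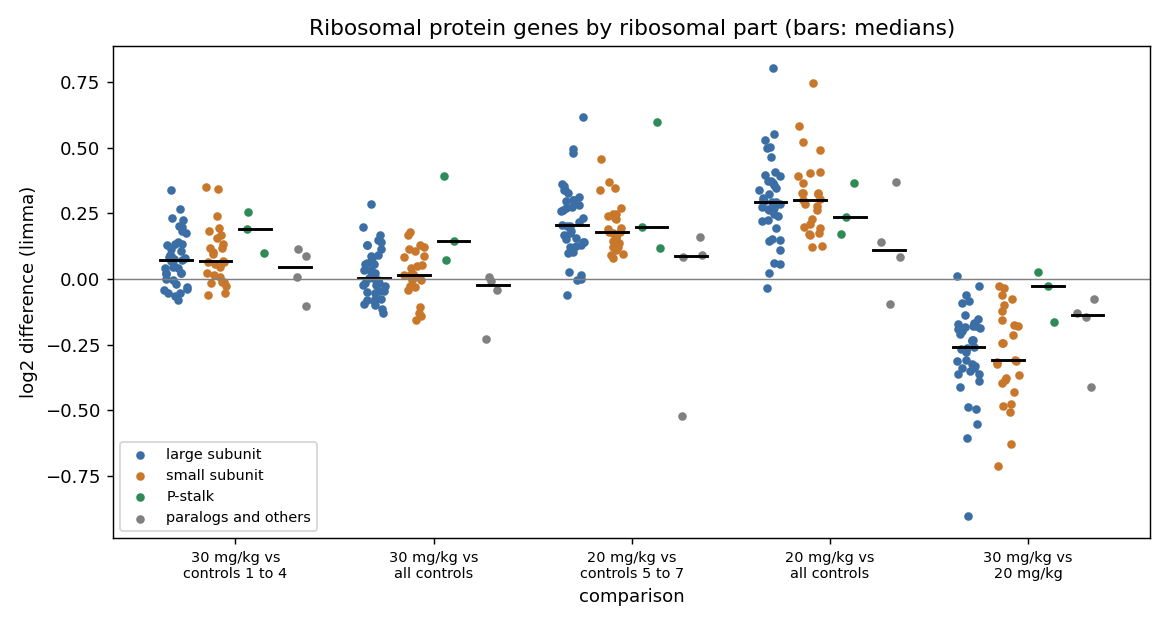
Log2 difference of each ribosomal protein gene (points, limma with sex as a term) in 5 comparisons, coloured by ribosomal part, with black bars at the medians. The large and small subunits lie at nearly the same medians in each comparison, 0.29 and 0.30 at 20 mg/kg against all controls and 0.00 and 0.02 at 30 mg/kg against all controls.

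The within-number comparisons share no array, so they can be read side by side. Of the 72 members, 53 had a positive difference in both, 15 only at 20 mg/kg, 2 only at 30 mg/kg and 2 in neither. Across members the Pearson r between both differences was 0.31, and 0.38 without Rps4y2, over genes that share arrays and are not independent. The difference at 20 mg/kg was the larger in 62 of 72.

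**Figure D3:**
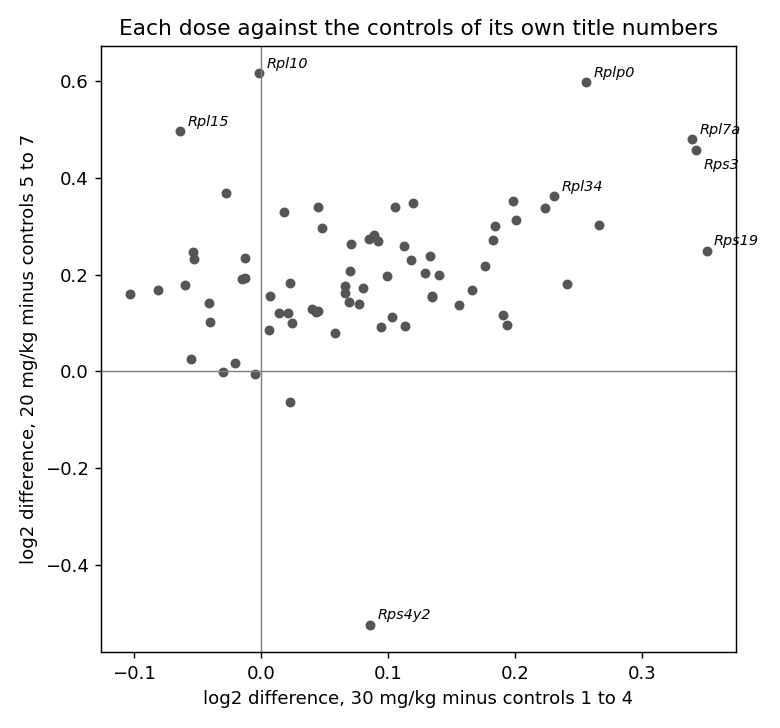
Log2 difference of each of the 72 genes at 30 mg/kg from controls 1 to 4 (x axis) and at 20 mg/kg from controls 5 to 7 (y axis). Most genes lie right of 0 and above 0, with Rpl7a and Rps3 far out on both axes, and Rps4y2 alone far below 0 on the y axis.

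The spread of the array values moved with these levels. The SD of all probe set values on an array was 2.06 to 2.11 at 30 mg/kg, 2.15 to 2.20 at 20 mg/kg, 2.04 to 2.11 in controls 1 to 4 and 2.14 to 2.21 in controls 5 to 7. Arrays of wider spread thus carried higher members across the number sets. Within numbers 5 to 10 the spreads overlapped, while the members' medians did not, at 11.87 to 12.01 at 20 mg/kg and 11.73 to 11.76 in the controls. With the SD as a covariate, a setting chosen after the data were seen, 0 members were called at 20 mg/kg against all controls and 0 between the doses, while the median differences were 0.22 and -0.14. Of all 14506 genes, that fit called 29 and 0 in these comparisons. For both doses together it called 3 members, beside 507 of all genes.

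**Figure D4:**
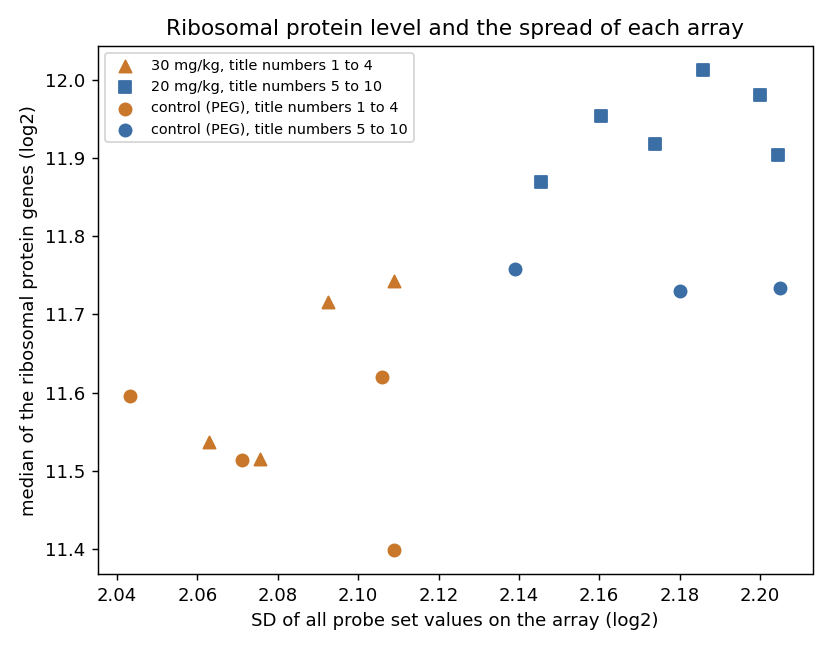
Median log2 value of the 72 ribosomal protein genes (y axis) against the SD of all probe set values (x axis), a point per array. The 20 mg/kg arrays lie above the controls 5 to 7, which have similar SDs, and all arrays numbered 1 to 4 lie to the left.

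Rpl7a, a protein of the large subunit, was at 10.97, 10.89, 11.15 and 11.03 at 30 mg/kg, between 10.99 and 11.49 with a median of 11.17 at 20 mg/kg, and between 10.41 and 10.90 with a median of 10.68 in controls. All samples at 20 mg/kg lay above all controls, and of the samples at 30 mg/kg only sample 2 lay within the controls' range. The difference of treated from control was 0.39 ± 0.08 (limma adjusted p = 0.030). It passed in 21 of 31 other settings, with differences of 0.33 to 0.48 over all 31. It did not pass without control 1, 4, 6 or 7, without sample 8 or 10 at 20 mg/kg, without the sex term, with females alone, within title numbers 1 to 4 or with the replicate number as a block. The difference was 0.46 ± 0.09 at 20 mg/kg (adjusted p = 0.022), and between the doses it was -0.18 ± 0.11 (adjusted p = 0.27). Symbol Rpl7a had 13 probe sets, which may share sequence with processed copies, so the source of its signal is uncertain.

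Rplp0 is the base of the P-stalk, the flexible arm of the large subunit that recruits translation factors. It was at 10.77, 10.81, 11.01 and 11.03 at 30 mg/kg, between 10.71 and 11.16 with a median of 10.80 at 20 mg/kg, and between 10.26 and 10.86 with a median of 10.55 in controls. The overlap came from controls 2 and 3 at 10.75 and 10.86, and controls 5 to 7 at 10.29, 10.57 and 10.35 lay below every treated sample. Its difference between the doses was 0.03 ± 0.13 (limma adjusted p = 0.92), and from all controls it was 0.37 ± 0.10 for both doses together (adjusted p = 0.072). The other stalk proteins, Rplp1 and Rplp2, which bind to Rplp0 as dimers, had smaller differences for both doses together, 0.17 ± 0.08 (adjusted p = 0.31) and 0.16 ± 0.06 (adjusted p = 0.23). Rplp2 was at 12.21, 12.34, 12.44 and 12.32 at 30 mg/kg, between 12.30 and 12.43 with a median of 12.35 at 20 mg/kg, and between 12.07 and 12.28 with a median of 12.20 in controls. Its samples at 20 mg/kg lay above all controls, though by little.

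Among the small subunit proteins, Rps3 lines the channel where mRNA enters. It was at 11.14, 10.46, 11.28 and 11.27 at 30 mg/kg, between 11.32 and 11.96 with a median of 11.72 at 20 mg/kg, and between 10.51 and 11.50 with a median of 10.72 in controls. Controls 5 to 7 at 11.15, 11.50 and 11.45 stood above controls 1 to 4, which reached 10.72, and sample 2 at 30 mg/kg stood below the other 3 of its dose. Rps3 was 0.75 ± 0.14 higher at 20 mg/kg than in all controls (limma adjusted p = 0.022), and it differed by 0.46 ± 0.12 from controls 5 to 7 (adjusted p = 0.092). At 30 mg/kg it differed by 0.34 ± 0.21 from controls 1 to 4 (adjusted p = 0.68).

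Rpsa, which also has a life outside the ribosome as a laminin-binding protein, showed the smallest p of the members between the doses. It was at 11.23, 10.77, 11.32 and 11.41 at 30 mg/kg, between 11.74 and 12.02 with a median of 11.96 at 20 mg/kg, and between 10.95 and 11.67 with a median of 11.38 in controls. No sample at 20 mg/kg overlapped with the other groups. The difference of 30 from 20 mg/kg was -0.71 ± 0.13 (limma adjusted p = 0.0059), while it was 0.58 ± 0.12 at 20 mg/kg (adjusted p = 0.023) and -0.13 ± 0.13 at 30 mg/kg (adjusted p = 0.60) against all controls.

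Rpl34, a large subunit protein, had the widest range of any member, 1.62 over the 17 arrays. It was at 10.52, 11.29, 11.54 and 11.18 at 30 mg/kg, between 12.01 and 12.14 with a median of 12.03 at 20 mg/kg, and between 10.55 and 11.74 with a median of 11.08 in controls. Controls 5 to 7 lay at 11.69 to 11.74 and controls 1 to 4 at 10.55 to 11.08. Samples at 20 mg/kg were 0.80 ± 0.18 above all controls (limma adjusted p = 0.041), and its difference from controls 5 to 7 was 0.36 ± 0.09 (adjusted p = 0.084).

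Rpl5 and Rpl11 form, with the 5S rRNA, the particle that also binds Mdm2 and frees p53 when ribosome assembly stalls. Rpl5 was at 12.11, 11.61, 11.93 and 12.00 at 30 mg/kg, between 12.42 and 12.65 with a median of 12.53 at 20 mg/kg, and between 11.57 and 12.40 with a median of 11.87 in controls. Rpl11 was at 11.62, 11.15, 11.56 and 11.37 at 30 mg/kg, between 11.82 and 12.01 with a median of 11.96 at 20 mg/kg, and between 11.07 and 11.73 with a median of 11.30 in controls. In both, the samples at 20 mg/kg lay above every other sample, closely so for Rpl5. The differences at 20 mg/kg from all controls were 0.55 ± 0.13 and 0.53 ± 0.11 (limma adjusted p = 0.048 and 0.024), and from controls 5 to 7 they were 0.22 ± 0.10 and 0.34 ± 0.10 (adjusted p = 0.33 and 0.13).

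Rps6 is the substrate of the S6 kinases, whose phosphorylation, which arrays do not show, is the usual readout of mTOR complex 1. Its transcript was at 11.66, 11.63, 11.94 and 11.85 at 30 mg/kg, between 12.04 and 12.27 with a median of 12.17 at 20 mg/kg, and between 11.39 and 12.06 with a median of 11.72 in controls. It differed by 0.40 ± 0.10 at 20 mg/kg from all controls (limma adjusted p = 0.063) and was lower at 30 than at 20 mg/kg by -0.39 ± 0.12 (adjusted p = 0.048). The difference between the doses was 0.007 with the title-number set as a term.

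Rpl8 and Rpl3 are large subunit proteins that contact the peptidyl transferase centre. Rpl8 had the smallest p at 20 mg/kg: it was at 11.16, 11.11, 11.43 and 11.44 at 30 mg/kg, between 11.52 and 11.87 with a median of 11.78 at 20 mg/kg, and between 10.93 and 11.52 with a median of 11.16 in controls. Its difference at 20 mg/kg was 0.50 ± 0.09 (limma adjusted p = 0.021) against all controls and 0.35 ± 0.10 (adjusted p = 0.13) against controls 5 to 7. The lowest sample at 20 mg/kg touched the highest control. Rpl3 differed by 0.37 ± 0.08 at 20 mg/kg (adjusted p = 0.042) and by 0.03 ± 0.09 at 30 mg/kg (adjusted p = 0.90).

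The other 6 members called at 20 mg/kg, and named here for that reason, were Rps10, Rps14, Rps15 and Rps19 of the small subunit and Rpl7 and Rpl24 of the large subunit. Rps19, the gene most often mutated in human Diamond-Blackfan anaemia, was at 11.29, 11.53, 11.56 and 11.48 at 30 mg/kg, between 11.70 and 12.02 with a median of 11.88 at 20 mg/kg, and between 10.89 and 11.68 with a median of 11.39 in controls. Its samples at 20 mg/kg lay just above controls 5 to 7, at 11.63 to 11.68, and its difference was 0.52 ± 0.12 from all controls (limma adjusted p = 0.042) and 0.25 ± 0.10 from controls 5 to 7 (adjusted p = 0.24). Rpl7 was at 11.94, 11.71, 12.16 and 12.14 at 30 mg/kg, between 12.15 and 12.37 with a median of 12.23 at 20 mg/kg, and between 11.63 and 12.00 with a median of 11.84 in controls. Here 2 samples at 30 mg/kg also lay above all controls, and the differences were 0.17 ± 0.10 at 30 mg/kg (adjusted p = 0.32) and 0.41 ± 0.09 at 20 mg/kg (adjusted p = 0.033) from all controls. The remaining 4 differed at 20 mg/kg by 0.33 to 0.49 from all controls. From controls 5 to 7 they differed by 0.24 to 0.34, with adjusted p of 0.11 to 0.23. In Rps14, Rps15 and Rpl24 the samples at 20 mg/kg lay above all controls, and in Rps10 they overlapped with controls 6 and 7.

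The probe set of Rpl15, another large subunit gene, was dim, so its values are less certain. It was at 7.23, 7.02, 7.34 and 7.39 at 30 mg/kg, between 7.68 and 8.09 with a median of 7.75 at 20 mg/kg, and between 7.13 and 7.49 with a median of 7.37 in controls. The samples at 20 mg/kg stood clear of all others, and the controls of both number sets lay together. The difference was 0.50 ± 0.09 against all controls (limma adjusted p = 0.022) and 0.50 ± 0.13 against controls 5 to 7 (adjusted p = 0.090).

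Rpl10 completes the large subunit late in its assembly, next to the P site. It was at 11.34, 11.27, 11.59 and 11.61 at 30 mg/kg, between 11.57 and 11.96 with a median of 11.72 at 20 mg/kg, and between 10.82 and 11.55 with a median of 11.38 in controls. Control 5, at 10.82, lay far below controls 6 and 7, at 11.44 and 11.55. Without control 5 the difference within numbers 5 to 10 was 0.44, with a limma adjusted p of 0.15.

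**Figure D5:**
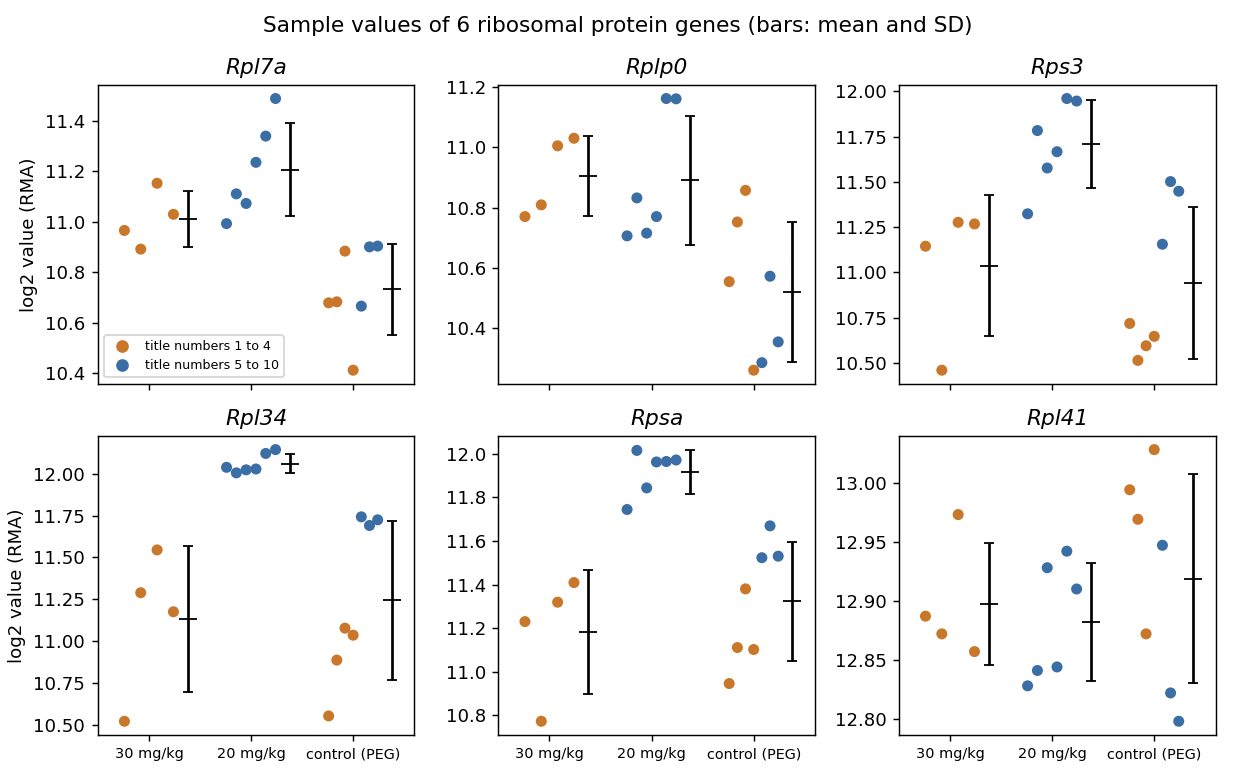
Log2 values of 6 ribosomal protein genes in each sample (points, coloured by title number), by group from left to right 30 mg/kg, 20 mg/kg and control, with the mean and SD of each group in black; the y axes differ between panels. Rpl7a and Rplp0 are higher in most treated samples of both doses, Rps3, Rpl34 and Rpsa are highest at 20 mg/kg with controls 5 to 7 above controls 1 to 4, and Rpl41 spans 0.23 in all.

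Rpl41 and Rpl31 were among the members of narrowest range. Rpl41, the shortest ribosomal protein, was at 12.89, 12.87, 12.97 and 12.86 at 30 mg/kg, between 12.83 and 12.94 with a median of 12.88 at 20 mg/kg, and between 12.80 and 13.03 with a median of 12.95 in controls. Its difference was -0.03 ± 0.07 at 20 mg/kg (limma adjusted p = 0.84). Rpl31, which lies at the peptide exit, spanned 0.18 over all arrays, the narrowest range of the members, and differed by 0.06 ± 0.07 at 20 mg/kg (adjusted p = 0.72). The probe sets used for both genes were bright. Of the other Rpl31 probe sets, a dimmer one (mean 8.50) differed by 1.17 at 20 mg/kg (limma adjusted p = 0.055 over all probe sets). The rest differed by -0.02 to 0.02. The 24 members with the highest means had a median difference of 0.25 at 20 mg/kg and 3 calls, the middle 24 had 0.29 and 3 calls, and the 24 with the lowest means had 0.36 and 9 calls.

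Paralogs were measured for few members. Rpl22 and its paralog Rpl22l1, which in mice is known to rise when Rpl22 is lost, differed at 20 mg/kg by 0.15 ± 0.08 (limma adjusted p = 0.37) and 0.14 ± 0.13 (adjusted p = 0.61). Rpl22l1 was at 10.57, 10.75, 11.02 and 11.04 at 30 mg/kg, between 10.66 and 11.12 with a median of 11.06 at 20 mg/kg, and between 10.50 and 11.16 with a median of 10.78 in controls, and the groups overlapped. Rps4x on the X chromosome was -0.48 ± 0.10 at 30 against 20 mg/kg (adjusted p = 0.010). It passed in 24 of 29 other settings, with differences of -0.50 to -0.02 over all 29. In the fit of all probe sets, the one used differed by 0.33 at 20 mg/kg from all controls (limma adjusted p = 0.076) and by -0.16 at 30 mg/kg. Its other probe set differed by 0.46 (adjusted p = 0.022) and 0.09. The dim Rps4y2 differed by -0.10 ± 0.21 at 20 mg/kg (adjusted p = 0.85). Rpl36a differed by 0.35 ± 0.10 (adjusted p = 0.089), Rpl36al1 by 0.37 ± 0.13 (adjusted p = 0.14) and Rps27 by 0.28 ± 0.12 (adjusted p = 0.23) at 20 mg/kg. The listed Rps27l, Rpl3l, Rpl7l1, Rpl10l, Rpl36al and Rpl39l were not analysed here.

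Functional groups of the ribosome were described by their counts. Of 8 measured genes that are mutated in human Diamond-Blackfan anaemia, an inherited failure of red cell production, 4 were called higher at 20 mg/kg (Rpl5, Rpl11, Rps10 and Rps19), with a median of 0.40, beside 15 of all 72 members and 0.655% of all genes. Of 4 proteins at the mRNA entry and decoding sites 2 were called (Rps3 and Rps15), with a median of 0.35, and of 6 proteins around the peptide exit 0 were called, with a median of 0.22. Against controls 5 to 7, 0 genes of these 3 groups were called, and the medians were 0.23, 0.22 and 0.17. Members whose annotated start was TOP-like and those whose start was not had medians of 0.29 (22 genes) and 0.30 (37 genes) at 20 mg/kg against all controls, and 0.23 and 0.17 against controls 5 to 7.

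The 72 symbols had 260 probe sets, up to 21 for a symbol (Rpl21), and 55 symbols had more than 1. Ribosomal protein genes have many processed copies in the genome, and probes may bind more than 1 of them. Of the 260, 253 had a positive difference at 20 mg/kg, and 52 of the 55 symbols had probe sets of a single sign. The r between probe sets of a symbol over the arrays had a median of 0.97, and 8 probe sets had values identical to another of theirs. In a fit of all 29214 probe sets, 48 of the 260 were called higher at 20 mg/kg and 0 lower, beside 0.626% of all probe sets called higher and 0.308% called lower. Probe sets of a symbol largely repeat each other, so the 48 are not separate genes. Every probe set of Rpl7a was among them. Some calls hung on the probe set chosen. In this fit the Rpl13 probe set used did not pass (limma adjusted p = 0.053), while others of Rpl13 did (0.029 to 0.044). Those used for Rpsa and Rpl24 passed (0.026 and 0.043), while their second probe sets did not (0.087 and 0.16).

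Other parts of the translation machinery were read from lists chosen with earlier results known. Of 2 ribosomal proteins outside the symbol pattern, Rack1, the scaffold on the head of the small subunit, was 0.38 ± 0.09 higher in treated samples (limma adjusted p = 0.048) and 0.42 ± 0.12 higher at 30 mg/kg (adjusted p = 0.036). Its difference at 20 mg/kg was 0.35 ± 0.10 (adjusted p = 0.097). Within title numbers, Rack1 differed by 0.28 ± 0.18 at 30 mg/kg (adjusted p = 0.70) and by 0.52 ± 0.09 at 20 mg/kg (adjusted p = 0.025). Fau, which encodes Rps30 fused to a ubiquitin-like protein, differed by 0.12 ± 0.08 in treated samples (adjusted p = 0.56). Of 18 other TOP mRNAs, mostly elongation and initiation factors, 2 were higher at 20 mg/kg, Eef1d (0.67 ± 0.11, adjusted p = 0.011) and Eif4a2 (0.72 ± 0.14, adjusted p = 0.022). The list's median was 0.36 at 20 mg/kg with 18 of 18 positive, and 0.03 at 30 mg/kg with 0 called. Between the doses it was -0.35 with 6 called lower. Of all genes, 0.655% were called higher at 20 mg/kg and 8.16% lower between the doses. Within title numbers 5 to 10 the list's median at 20 mg/kg was 0.21 with 1 called higher, beside 0.214% of all genes. With the title-number set as a term, the list's median between the doses was -0.18 with 0 called, beside 0% of all genes.

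Of 24 ribosome biogenesis genes, 0 were called at 20 mg/kg (median 0.22), and 1 was higher at 30 mg/kg (median -0.03), Bop1, a factor of large subunit assembly (0.58 ± 0.12, limma adjusted p = 0.0069). Of 17 regulators of TOP translation and S6 kinase signalling, 0 were called at 20 mg/kg and 2 were higher at 30 mg/kg, Tsc1, a brake on mTOR complex 1 (0.52 ± 0.14, adjusted p = 0.028), and Myc, a transcription factor of ribosome genes (0.59 ± 0.16, adjusted p = 0.028). Of all genes, 3.66% were called higher at 30 mg/kg. Eif4ebp1, the mTOR-regulated inhibitor of cap-dependent initiation, differed by 0.25 ± 0.14 at 30 mg/kg (limma adjusted p = 0.27). Within title numbers 1 to 4 the 3 genes called at 30 mg/kg did not pass, at 0.73 ± 0.16 for Bop1 (adjusted p = 0.17), 0.37 ± 0.21 for Tsc1 (adjusted p = 0.65) and 0.37 ± 0.20 for Myc (adjusted p = 0.61).

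The non-member genes most like 3 members were found by Pearson r over the 17 arrays. Those of Rpl7a were Eif4b (0.92), Zfp821 (0.90) and Cldnd1 (0.89). Those of Rplp0 were Rack1 (0.91), Per1 (0.85) and Tcp11l2 (0.84), and those of Rpl7 were Use1 (0.92), Oser1 (0.91) and Tomm20 (0.89). They share arrays, and no test was made.

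Markers of other cell types moved with treatment beside the ribosomal genes. In samples at 20 mg/kg, 2 of 6 lymphocyte markers were lower (Ptprc and Cd2) and 0 of 10 macrophage, 0 of 3 erythroid and 0 of 6 endothelial markers were called. At 30 mg/kg, 3 of 6 lymphocyte, 4 of 10 macrophage and 2 of 3 erythroid markers were lower and 2 of 6 endothelial markers were higher. Of all genes, 0.524% were called lower at 20 mg/kg, and 4.89% lower and 3.66% higher at 30 mg/kg. Against controls 1 to 4, 1 lymphocyte and 1 erythroid marker were lower at 30 mg/kg, and 0 macrophage or endothelial markers were called. Against controls 5 to 7 at 20 mg/kg, 4 lymphocyte, 1 macrophage and 1 erythroid marker were lower and 1 endothelial was higher. In these comparisons 0.0827% and 0.979% of all genes were lower, and 0.0276% and 0.214% higher. The lymphocyte markers' mean was 4.18 to 4.38 at 30 mg/kg, 4.23 to 4.50 at 20 mg/kg and 4.72 to 5.24 in controls. These lay near or below the array medians of 4.95 to 5.11, so they are dim. The erythroid mean was 5.20 to 7.24 at 30 mg/kg, 5.76 to 7.04 at 20 mg/kg and 7.12 to 8.83 in controls. The macrophage mean was 6.55 to 7.45 at 30 mg/kg, 7.21 to 7.92 at 20 mg/kg and 7.51 to 7.95 in controls. The endothelial mean was 7.81 to 7.89 at 30 mg/kg, 7.25 to 7.73 at 20 mg/kg and 7.05 to 7.66 in controls. Among tissue markers, Ddc, a catecholamine enzyme, was lower at 30 mg/kg (1 of 6 chromaffin markers), and Mc2r, the ACTH receptor, was lower at 20 mg/kg (1 of 8 adrenal cortex markers). Their part in the ribosomal protein result was not tested.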

How the data were processed

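Transcript levels of 17 samples were analysed from the deposited table of 29214 probe sets. Per the submitters' processing notes the authors used RMA and Affymetrix Expression Console 1.3.0.187. The deposited log2 values lay between 2.21 and 13.7 and entered the tests unaltered. RMA gives all arrays the same distribution of probe signals, so a shift shared by most transcripts is removed, and bright probe sets can be compressed. The number of arrays limits the precision. No pair of arrays was identical.

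The probe annotation gave 1 symbol for 15310 probe sets, several for 323 and none for 13581. Gene IDs matched 15279 of the first to the RefSeq table of GRCr8, and 0 symbols changed. Genes were tested with limma 3.58.1 in R 4.3.3 (lmFit, eBayes, two-sided, sex as a term), adjusted by Benjamini-Hochberg over 14506 genes at 0.05. The fits were tested on simulated data. Groups and title numbers came from the sample titles and treatment labels. Same-numbered samples of different groups did not deviate together (r of -0.29 to 0.23 over 7 pairs), so samples were not paired.

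The members and lists were chosen with earlier results of these data known. Genes were named by rule: the members of smallest p in each comparison, a fixed set of ribosomal proteins, the widest and narrowest ranges, up to 3 genes of each list, and the non-members most like 3 members. Rps10, Rps12, Rps14, Rps15, Rpl17, Rpl38, Rps4x, Rpl24, Rpl28, Eif4ebp1 and other genes called in a list were named after their values were seen. The alternatives covered sex, the title-number set, pairing, array weights, variances, normalization, probe set choice, filters, thresholds and each sample left out.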

Additional observations from a re-analysis of the deposited data

Results flagged for a closer look

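Of 102 groups of samples, 3 for each of the 33 named members and for the median of all members, 5 held a sample that stood apart from the others of its group, and chance alone gives about 1 in 20. Control 5 was the lowest of 7 controls for Rpl10, at 10.825 with the next at 11.325. The same control was the highest of 7 for Rpl22, at 12.318 with the next at 12.035, and for Rplp1, at 12.331 with the next at 12.177. Sample 2 at 30 mg/kg was the lowest of 4 for Rps15, at 11.467 with the next at 11.689, and for Rps3, at 10.459 with the next at 11.144.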

How the results depend on the processing

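Under every setting the median difference of the members from all controls kept its sign at 20 mg/kg, and with each sample left out it was 0.26 to 0.31. It was 0.16 to 0.20 for both doses, -0.03 to 0.04 at 30 mg/kg and -0.29 to -0.23 between the doses. The counts of calls depended on the processing. For both doses (1 member) they were 6 with the title-number set as a term, 11 with array weights, 2 with probe sets averaged per gene, 3 with the array SD, 4 among genes with a mean of at least 10, 3 within numbers 5 to 10, 3 at 0.1, 0 without sex, in females, within numbers 1 to 4, with the block and at 0.01, and 0 to 3 with each sample left out. Of all 14506 genes, 215 were called in the main fit, 712 with the set term, 424 with array weights and 221 with probe sets averaged. The array SD gave 507, numbers 5 to 10 gave 173 and a threshold of 0.1 gave 430. Of 409 genes with a mean of at least 10, 26 were called. At 30 mg/kg (0 members) the member calls were 1 under median centring and with probe sets averaged, 2 among bright genes and at 0.1, and 0 to 1 with each sample left out. Of all genes, 1395 were called under median centring, 1256 with probe sets averaged and 2053 at 0.1. Of the 409 bright genes, 37 were higher and 56 lower. At 20 mg/kg (15 members) the member calls were 2 without sex or after quantile normalization, 0 in females, 1 with the set as a term, 3 within numbers 5 to 10, 32 with array weights and at 0.1, 0 with the array SD and at 0.01, and 0 to 32 with each sample left out. Among the 409 genes with a mean of at least 10 there were 54, with 27 of 339 other genes also higher. Of all 14506 genes, 171 were called in the main fit, 55 without sex, 103 after quantile normalization and 2 in females. The set term gave 52, numbers 5 to 10 gave 173, array weights 577 and the array SD 29. Thresholds of 0.1 and 0.01 gave 582 and 12. Between the doses (24 members) the member calls were 2 in females and at 0.01, 0 with the set as a term (median -0.10) and with the array SD, 7 after quantile normalization, 10 after median centring, 39 among bright genes, and 2 to 28 with each sample left out. Of all genes, 1752 were called in the main fit, 405 in females, 302 at 0.01, and 0 with the set term or the array SD. Quantile normalization gave 1371 and median centring 1896. Of the 409 bright genes, 133 were lower and 47 higher. Median centring moved the median of all genes to 0.12 between the doses.

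Same-numbered samples did not deviate together, though 7 pairs are too few to exclude that the numbers pair the samples. With the number as a replicate block 0 members were called in all comparisons. The medians were 0.14 at 20 mg/kg and -0.0139 between the doses. Samples 8 to 10 at 20 mg/kg have no partner of the same number and add nothing to the block fit, so it rests on the 7 pairs and has little power. Of all genes, the block left 231 called for both doses, 72 at 30 mg/kg, and 0 at 20 mg/kg and between the doses. Of 40 member results that passed, 11 changed sign under the block, all between the doses: Rpl13 0.0025, Rpl13a 0.19, Rpl21 0.20, Rpl34 0.0139, Rpl35a 0.10, Rpl9 0.12, Rps12 0.0681, Rps21 0.25, Rps23 0.31, Rps3 0.11 and Rps6 0.16. Rps6 was 0.007 with the set as a term. Over 31 settings, 677 of 1175 values kept direction and call, 486 kept direction only and 12 changed sign. The cause was not tested.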
